A study of Mus musculus with 2 samples.

Results

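The genes described here encode 8 receptors of myeloid cells that are classed as inhibitory, Siglech, Cd33, Cd300a, Cd300lf, Lair1, Pilra, Sirpa and Cd200r1, and 2 of their ligands, Cd47 and Cd200. They were chosen by symbol, and all 10 were found among the 27998 genes of both deposited matrices. The cells were YFP-positive spinal cord cells sorted from mice of the Cx3cr1-CreERT2-YFP::flxRunx1 strain on a C57BL/6J background, in which a Cre that tamoxifen activates is driven from Cx3cr1. Single-cell 3′ libraries were made from vehicle-treated mice labelled wild type and from tamoxifen-treated mice labelled Runx1 knock-out, with tamoxifen given at 1 mg per day in 5 injections and tissue taken 4 weeks after the first. Both groups carry the same transgenic strain label. With 1 library per group there was no test between groups, and genotype, tamoxifen and library cannot be told apart.

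Most receptors of this group damp the signalling of the cell that carries them. When the ligand binds, Src family kinases phosphorylate tyrosine motifs in the receptor tail, and these recruit the phosphatases SHP-1 and SHP-2 (Ptpn6 and Ptpn11), which act against kinase signals from activating receptors. The ligands mark self or dying cells. They are sialic acid for Cd33, lipids of dying cells for the CD300 proteins, collagens for Lair1, CD47 for Sirpa and CD200 for Cd200r1. Microglia meet CD47 and CD200 on neurons and vessel cells, and both pairs are known for restraining phagocytosis and activation.

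The library labelled wild type held 4582 barcodes and 37446978 UMIs (unique molecular identifiers, each standing for 1 captured molecule), and the library labelled knock-out held 2604 barcodes and 13075939 UMIs. After filtering, 4582 and 2596 cells were kept, and 9 barcodes occurred in both libraries. The labels speak of microglia, and 13 of 13 fixed microglia markers were present in the microglia-like class, which took 2178 cells of the wild-type label and 1354 of the knock-out label. The wild-type cells all lay in cluster 0 and 1350 of the others in cluster 2, so a difference between libraries is also a difference between these clusters. Endothelial-like cells made up 1615 and 834 cells although the sort was for YFP. Median depth per microglia-like cell was 5511 and 3465 UMIs. Runx1 itself was read at 92.6 CPM (UMIs of a gene per 1000000 UMIs of the class) under the wild-type label and 181 CPM under the knock-out label, a log2 ratio of 0.97. The stretch that was floxed is not named in these sources, and 3′ tags outside it check nothing, so the groups are called by their labels. All intervals below are at 95% and cover counting error only.

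The sequences just upstream of 4 members are shown because they belong to the members with the largest ratios between the libraries, Cd300lf and Cd200, and to the receptors whose upstream window holds the RUNX core and which had the highest and a low level, Siglech and Pilra. Each is the 250 bases before the transcription start in RefSeq (GRCm38.p6), and capitals mark the RUNX core TGTGGT or its reverse complement ACCACA, searched on both strands.
Cd300lf (chr11:115133993-115134242, minus strand): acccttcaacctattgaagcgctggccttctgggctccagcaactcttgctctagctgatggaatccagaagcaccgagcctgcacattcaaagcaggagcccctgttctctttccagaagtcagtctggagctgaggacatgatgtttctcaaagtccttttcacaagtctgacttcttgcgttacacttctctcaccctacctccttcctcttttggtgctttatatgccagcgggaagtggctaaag
Cd200 (chr16:45409054-45409303, minus strand): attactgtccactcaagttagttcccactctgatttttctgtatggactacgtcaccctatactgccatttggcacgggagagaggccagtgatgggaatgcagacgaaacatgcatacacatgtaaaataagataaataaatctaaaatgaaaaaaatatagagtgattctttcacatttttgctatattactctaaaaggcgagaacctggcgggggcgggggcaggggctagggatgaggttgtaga
Siglech (chr7:55767934-55768183, plus strand): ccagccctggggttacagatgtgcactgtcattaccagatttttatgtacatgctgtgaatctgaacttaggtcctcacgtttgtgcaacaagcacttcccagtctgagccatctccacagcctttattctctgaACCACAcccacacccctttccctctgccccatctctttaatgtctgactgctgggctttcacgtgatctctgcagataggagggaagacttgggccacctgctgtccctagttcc
Pilra (chr5:137836279-137836528, minus strand): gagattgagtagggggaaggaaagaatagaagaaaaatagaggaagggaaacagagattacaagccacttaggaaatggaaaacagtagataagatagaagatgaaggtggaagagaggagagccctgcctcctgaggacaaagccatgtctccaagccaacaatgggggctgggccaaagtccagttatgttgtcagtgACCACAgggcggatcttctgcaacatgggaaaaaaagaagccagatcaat
Of the 8 members with an entry, Siglech, Cd33 and Pilra held the RUNX core once each, 115, 88 and 50 bases before the start, and the other 5 did not. The same letters occurred in 14.05% of 32851 promoter windows of this length. The core motif of PU.1, GAGGAAGT, was in no member's window and in 2.44% of all windows. A match describes letters only, and no match says nothing about whether a factor acts there.

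In microglia-like cells the receptors covered a wide range of levels, and the order changed between the libraries at its top and at its bottom. Under the wild-type label Siglech was highest at 594 CPM, followed by Lair1 at 488 CPM and Sirpa at 247 CPM. Cd33 at 104 CPM and the ligand Cd47 at 101 CPM had overlapping intervals. Below them came Cd300a at 66.4 CPM, Cd200 at 48.4 CPM, Pilra at 33.0 CPM, Cd200r1 at 13.02 CPM and Cd300lf at 2.42 CPM. Under the knock-out label Lair1 led at 620 CPM, and Siglech at 453 CPM and Sirpa at 442 CPM had overlapping intervals. Cd33 at 138 CPM and Cd47 at 121 CPM overlapped again, Cd300a had 99.5 CPM, and Pilra and Cd300lf were level at 38.3 and 38.1 CPM. Cd200 at 17.8 CPM and Cd200r1 at 12.5 CPM closed the order, also with overlapping intervals. These CPM count 3′ tags and were not divided by gene length, and how well each transcript is captured may differ between genes.

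**Figure D1:**
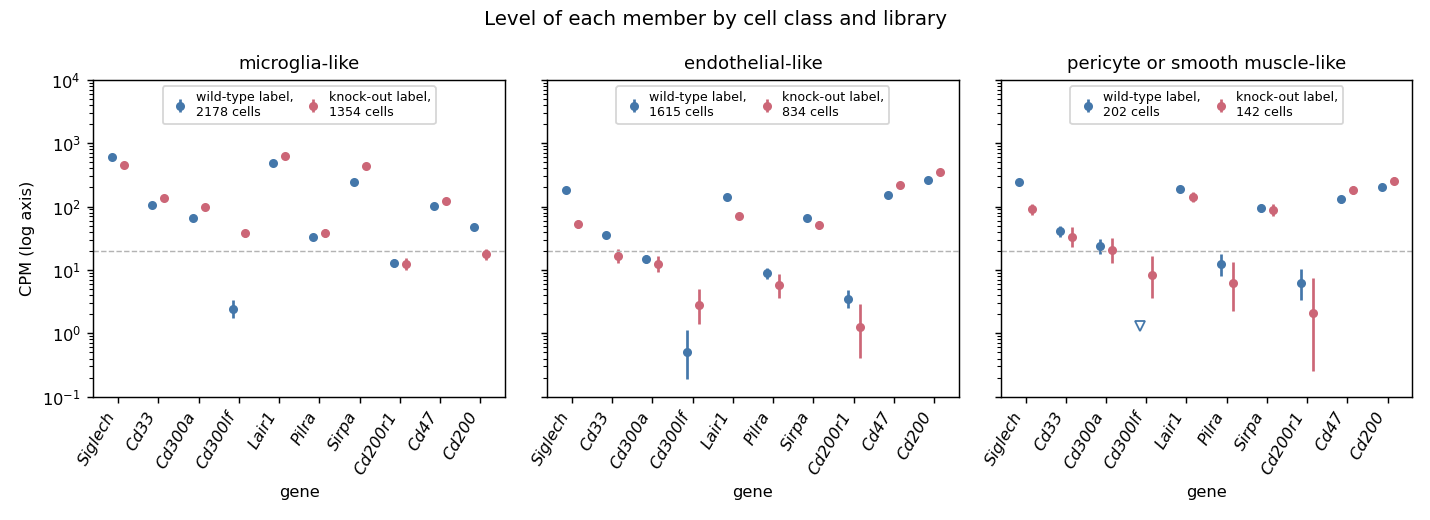
CPM of each member (log axis) in microglia-like, endothelial-like and pericyte or smooth muscle-like cells, with points for each library and bars for the exact 95% Poisson interval; the open triangle is the level of 3 counts where no UMI was found, and the dashed line is the 20 CPM minimum. Cd300lf stands at 2.42 and 38.1 CPM in the microglia-like panel, the widest gap between the libraries of any member there, while Cd200 is highest in the endothelial-like panel.

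Between the libraries, 7 of the 9 members with at least 20 CPM in either library were higher under the knock-out label and 2 were lower. Among all 5753 genes measured in these cells, 46.5% were higher. Only Cd300lf was at least 2-fold higher, against 1.81% of all genes, and only Cd200 was at least 2-fold lower, against 5.34% of all genes. Cd300lf reached 20 CPM only under the knock-out label (2.42 and 38.1 CPM). Cd200 reached it only under the wild-type label (48.4 and 17.8 CPM). The median log2 ratio of the 9 was 0.35, beside −0.04 for all genes. The remaining 7 differed by less than 2-fold, and Cd200r1 stayed under the minimum in both libraries.

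Cd300lf, an inhibitory CD300 receptor that binds lipids exposed on dying cells, showed the largest difference. Its RNA was counted 38 times in 2178 cells of the wild-type label, or 2.42 CPM (interval 1.72 to 3.33), and 234 times in 1354 cells of the knock-out label, or 38.1 CPM (33.4 to 43.3). The intervals are far apart, and the log2 ratio was 3.97 (3.48 to 4.51), a 15.7-fold difference that ranked 3 from the top of the 5753 genes. Cd300lf was among those genes through its level under the knock-out label alone. The UMIs were spread over many cells, since 197 cells of the knock-out label carried at least 1, 30 of them 2 or more, and none more than 4. All 38 wild-type UMIs came from separate cells. When the cells were split by depth into 3 bins of equal number, Cd300lf lay between 1.92 and 2.94 CPM in the bins of the wild-type label and between 30.7 and 42.2 CPM in those of the knock-out label.

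Cd300lf lies at chr11:115116214-115133992 on the minus strand (GENCODE M21, GRCm38), inside the cluster of CD300 genes, and the 3 measured neighbours differed far less. Rab37, which overlaps it on the other strand, had 6 UMIs in each library, or 0.38 and 0.98 CPM, too few to compare. Among the 8 annotated genes within 100 kb, 3 reached 20 CPM and none differed 2-fold. Slc9a3r1 was at 30.1 and 29.6 CPM, Nat9 at 46.5 and 32.2 CPM and Tmem104 at 23.0 and 20.2 CPM, in the order wild-type and knock-out label. The nearby family members Cd300lh (2.87 and 2.93 CPM) and Cd300e (no UMI and 1 UMI) stayed low. The gene models Gm11710 and Gm11711 had no UMI in either library.

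Cd300a, the other inhibitory CD300 receptor measured, was found 1041 and 611 times, at 66.4 CPM (62.4 to 70.6) and 99.5 CPM (91.8 to 108). Its log2 ratio was 0.58 (0.44 to 0.73), less than a 2-fold difference, with intervals that did not overlap. AF251705, a further CD300 family gene 92067 bases from Cd300a, had 308 and 472 CPM, a log2 ratio of 0.61. All 3 measured genes of the 9 in the CD300 family were higher under the knock-out label, with a median of 0.61, where 46.5% of all genes were higher. Only AF251705 among them is not a member, so this count largely repeats the values of Cd300lf and Cd300a.

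Sirpa, the receptor for CD47, was found 3869 and 2715 times. It stood at 247 CPM (239 to 255) and 442 CPM (426 to 459), a log2 ratio of 0.84 (0.77 to 0.91) and the second largest ratio among the receptors. Lair1, the collagen receptor, was found 7655 and 3810 times, at 488 CPM (478 to 500) and 620 CPM (601 to 641), a log2 ratio of 0.35 (0.29 to 0.40). In both genes the intervals of the libraries were separate, and in neither was the difference 2-fold. With the library background subtracted the ratios were 0.56 for Sirpa and 0.07 for Lair1.

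The Siglecs among the members went in different directions. Siglech, a Siglec that signals through the adaptor encoded by Tyrobp and marks resident microglia, was found 9305 and 2783 times. Its level was 594 CPM (582 to 606) and 453 CPM (437 to 470), a log2 ratio of −0.39 (−0.45 to −0.33), and it was the only lower one among the 7 receptors at 20 CPM or more. Cd33 was found 1632 and 846 times, at 104 CPM (99.1 to 109) and 138 CPM (129 to 147), a log2 ratio of 0.40 (0.28 to 0.52). Pilra, which recognises sialylated O-glycans on other proteins, had 517 and 235 UMIs at 33.0 CPM (30.2 to 36.0) and 38.3 CPM (33.5 to 43.5). The Pilra intervals overlap, and that of its log2 ratio of 0.21 (−0.01 to 0.44) includes equality. With the library background subtracted the Pilra ratio was −0.08.

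Cd200r1, the CD200 receptor, was found 204 and 77 times, at 13.02 CPM (11.3 to 14.9) and 12.5 CPM (9.90 to 15.7). It did not reach the minimum, and a difference between the libraries was not detectable at this depth.

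The 2 ligands differed in opposite directions in microglia-like cells. Cd47, a membrane protein of nearly all cells, was found 1586 and 740 times, at 101 CPM (96.3 to 106) and 121 CPM (112 to 130), a log2 ratio of 0.25 (0.12 to 0.38). Cd200, a membrane glycoprotein of neurons and endothelium, was found 758 and 109 times, at 48.4 CPM (44.98 to 51.9) and 17.8 CPM (14.6 to 21.4), a log2 ratio of −1.45 (−1.75 to −1.15) or a 2.72-fold lower level. RNA of the 10 endothelial markers in the same microglia-like cells was lower too, at a summed 6555 and 2163 CPM, a log2 ratio of −1.60. Cd200 UMIs per 1000 UMIs of those markers were 7.38 and 8.21 in microglia-like cells and 12.4 and 15.03 in endothelial-like cells. The whole-library profile was also subtracted at the share that brings the endothelial markers to 0, with negative values set to 0. Cd200 then stood at 0 CPM in microglia-like cells of both libraries, and no ratio can be given. That setting gives 0 wherever Cd200 per endothelial marker UMI is lower than in the whole library, so it does not measure an absence of Cd200. The single annotated gene within 100 kb of Cd200 did not reach 20 CPM.

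**Figure D2:**
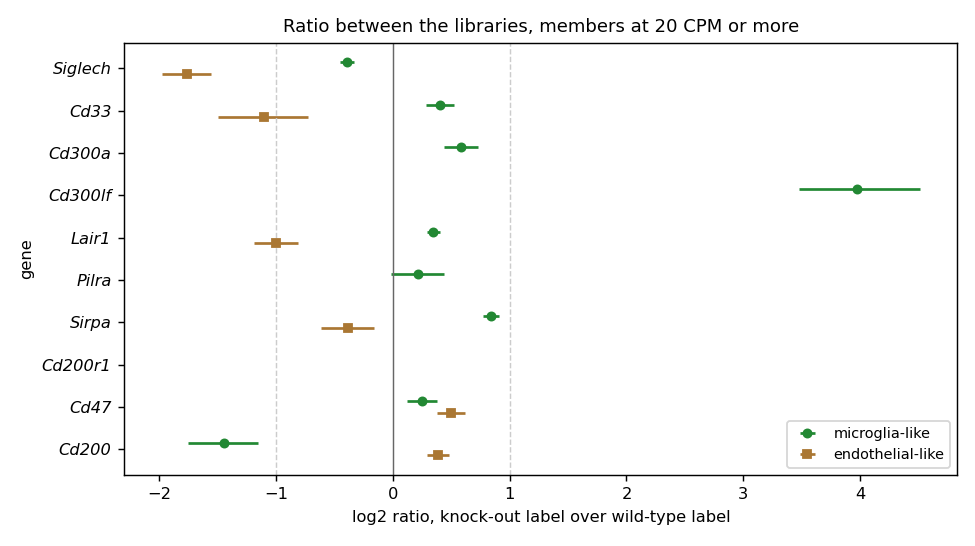
Log2 ratio of the knock-out label over the wild-type label for each member with at least 20 CPM in either library, in microglia-like cells (circles) and endothelial-like cells (squares), with exact 95% intervals for counting error; dashed lines mark 2-fold. Cd300lf lies at 3.97 in microglia-like cells, and Cd33, Lair1, Sirpa and Cd200 lie on opposite sides of 0 in the 2 classes.

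Between cell classes, each receptor that reached 20 CPM was higher in microglia-like cells, and both ligands were higher in endothelial-like cells, Cd47 by less than 2-fold. Within the library labelled wild type, 6 of the 8 members with at least 20 CPM in either class were at least 2-fold higher in microglia-like than in endothelial-like cells, all of them receptors, against 10.1% of 6308 genes. Under the knock-out label Cd300lf joined them and 7 of 9 were, against 14.7% of 6713 genes. Cd200 was 5.50-fold higher in endothelial-like cells under the wild-type label and 19.6-fold under the knock-out label, against 15.1% and 24.8% of genes at least 2-fold lower in microglia-like cells. Cd47 was 1.51-fold and 1.79-fold higher in endothelial-like cells.

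Receptor RNA in endothelial-like cells kept step with microglia marker RNA there. Under the wild-type label the 6 receptors stood in endothelial-like cells at 22.7% to 34.8% of their microglia-like level, and the 13 microglia markers at 17.5% to 98.0% with a median of 32.4%. Under the knock-out label the 7 receptors stood at 7.26% to 15.1%, and the markers at 6.94% to 69.7% with a median of 11.8%. The highest marker in both was Sparc, which endothelial cells also make, and without it the markers reached 49.1% and 16.8%. Receptor levels in endothelial-like cells, as shares, lay inside the range of the microglia markers in each library.

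Measured in endothelial-like cells, 4 of the 6 members at 20 CPM or more were lower under the knock-out label and 2 were higher, where 61.5% of 6283 genes were higher. Siglech went from 179 to 52.8 CPM, a log2 ratio of −1.76 (−1.98 to −1.56), Cd33 from 36.2 to 16.9 CPM (−1.10) and Lair1 from 143 to 71.4 CPM (−0.998). Sirpa went from 66.9 to 51.3 CPM (−0.38). Siglech and Cd33 were at least 2-fold lower, against 2.75% of genes, and no member was 2-fold higher, against 0.653% of genes. The summed microglia markers in the same cells went from 14765 to 7316 CPM, a log2 ratio of −1.01, and their part in these differences was not tested.
The ligands, at home in this class, went the other way. Cd200 was found 3110 and 1386 times, at 266 CPM (257 to 276) and 349 CPM (330 to 367), a log2 ratio of 0.39 (0.30 to 0.48). Cd47 was found 1780 and 857 times, at 152 CPM (145 to 160) and 216 CPM (201 to 230), a log2 ratio of 0.50 (0.38 to 0.62). Both pairs of intervals were separate.

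The 202 and 142 pericyte or smooth muscle-like cells gave a similar picture with wider intervals. Cd200 stood at 206 and 255 CPM (log2 ratio 0.31), Cd47 at 130 and 182 CPM (0.49) and Siglech at 240 and 90.3 CPM (−1.41). Siglech was the only member at least 2-fold lower, against 2.59% of 6731 genes, and none was 2-fold higher, against 2.29%. Of the 7 members measured there, 2 were higher, against 55.6% of genes. Cd300lf had no UMI in the 202 cells of the wild-type label, where 3 counts would be 1.31 CPM, and 8 UMIs in the other library.

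The remaining classes held few cells. In 18 oligodendrocyte-like cells of the wild-type label Cd47 stood at 286 CPM (202 to 392, 38 UMIs), above its level of 101 CPM in microglia-like cells of that library. A cluster of 19 cells of that label, led by MHC class II genes with markers of border-associated macrophages and B cells, had Siglech at 512 CPM (420 to 618), Lair1 at 357 CPM (281 to 447) and Sirpa at 183 CPM (130 to 250). Erythrocyte-like barcodes, 55 and 73 of them, read Cd200 at 201 and 247 CPM and Cd47 at 105 and 119 CPM. The 470 and 152 cells of unnamed clusters, most of them in a cluster with markers of both microglia and endothelium, lay between those classes for Siglech (407 and 267 CPM), Lair1 (335 and 400 CPM) and Cd200 (150 and 160 CPM). Cd300lf in the unnamed cells was at 0.93 and 23.1 CPM.

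Counted as cells, the receptors were found in shares that followed their levels. Each cell was thinned to 1500 UMIs, since depth differed, and no microglia-like cell was shallower. Of microglia-like cells, 56.6% and 49.0% then carried a Siglech UMI, 52.3% and 60.5% a Lair1 UMI and 30.2% and 48.5% a Sirpa UMI. In endothelial-like cells the shares were 23.8% and 6.95% for Siglech, 21.1% and 11.03% for Lair1 and 9.78% and 8.39% for Sirpa. Whether receptor RNA in endothelial-like cells was free RNA, came from doublets or was made there was not tested. Cd33 was found in 14.1% and 18.7% of microglia-like cells and Cd300a in 9.60% and 15.4%, above the 4.71% and 2.04% and the 2.35% and 2.28% of endothelial-like cells.

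Cd300lf was found in 0.18% (0.05 to 0.47) and 4.87% (3.79 to 6.16) of thinned microglia-like cells, and in 0.06% and 0.12% of endothelial-like cells. At full depth the microglia-like shares were 1.74% and 14.5%. Pilra was found in 5.65% and 6.20% and Cd200r1 in 2.11% and 1.70% of thinned microglia-like cells. Cd47 shares were 15.6% and 17.0%, and Cd200 shares 6.80% and 2.36%, against 31.9% and 39.6% of endothelial-like cells. In all, 7 of the 10 members had a higher share under the knock-out label after thinning. At full depth, where the cells of the wild-type label carried more UMIs, 2 of 10 did, Cd300lf and Sirpa. Thinned to 1000 UMIs, Pilra was lower under the knock-out label (3.90% and 3.69%) and Cd200r1 higher (1.29% and 1.48%). The same share over all genes was not computed, so these counts only describe the members.

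**Figure D3:**
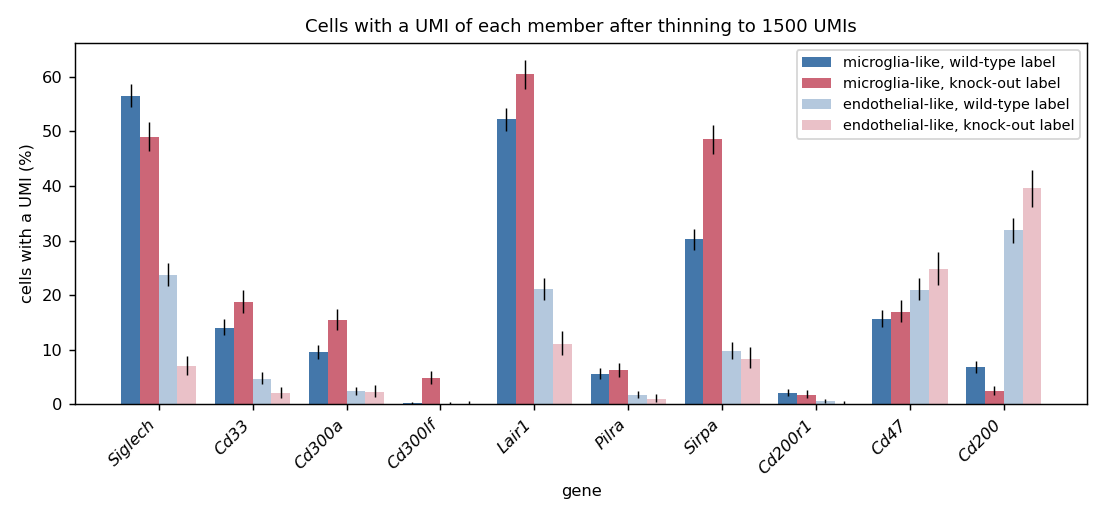
Percent of microglia-like and endothelial-like cells of each library with at least 1 UMI of each member after every cell was thinned to 1500 UMIs; bars start at 0 and whiskers are exact 95% Clopper-Pearson intervals. Sirpa is found in 30.2% and 48.5% of microglia-like cells, and Cd200 in 31.9% and 39.6% of endothelial-like cells.

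Cells commonly carried RNA of more than 1 receptor. Of the 8 receptors, a thinned microglia-like cell showed 1.71 on average under the wild-type label and 2.05 under the knock-out label, and an endothelial-like cell 0.64 and 0.32. None was seen in 11.2% (9.86 to 12.6) and 6.28% (5.04 to 7.70) of microglia-like cells, and 4 or more in 3.54% (2.80 to 4.40) and 10.1% (8.56 to 11.8). Pearson correlations between members over thinned microglia-like cells of a library ran from −0.04 to 0.07 under the wild-type label and from −0.06 to 0.07 under the knock-out label over 45 pairs. Correlations this weak in sparse counts were not read as a finding.

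Within the microglia-like cells, each library clustered on its own gave a chemokine-low and a chemokine-high group, of 1242 and 927 cells under the wild-type label and 646 and 700 under the knock-out label. The cluster with Il1b among its 10 top genes was named chemokine-high, so its Il1b level follows from that rule. Il1b was at 35.6 and 137 CPM under the wild-type label and 18.0 and 178 CPM under the knock-out label. The chemokine gene Ccl3 was at 2808 and 4598 CPM and at 2121 and 3580 CPM, so the low groups are low only beside the high ones. Il1b and Ccl3 are named here after their values were seen. The 2 groups were chosen after their values were seen. Siglech, Lair1, Cd300a and Cd47 were lower in the chemokine-high group of both libraries, each by less than 2-fold and with intervals that excluded equality. Of all genes, 34.6% under the wild-type label and 38% under the knock-out label were higher in that group, so a lower level there was the more common direction. Siglech was at 686 and 516 CPM in the low and high groups of the wild-type label and at 530 and 403 CPM in those of the knock-out label, log2 ratios of −0.41 and −0.40. Lair1 was at 536 and 447 CPM and at 697 and 571 CPM (−0.26 and −0.29). Cd47 had ratios of −0.33 and −0.37 and Cd300a of −0.44 and −0.25. Sirpa had ratios of −0.10 and −0.16, also below equality in both. No member differed 2-fold between the groups in either direction, where 0.517% and 1.27% of all genes were at least 2-fold higher and 0.0535% and 0.235% at least 2-fold lower. Cd33 (−0.19 and −0.05), Pilra (0.05 and −0.15), Cd200r1 (−0.13 and −0.32), Cd300lf (0.91 and 0.29) and Cd200 (0.06 and −0.10) had an interval that included equality in at least 1 library.

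For the members other than Pilra and Cd200r1, the differences between the libraries were present inside each of these groups. Cd300lf had 12 and 82 UMIs in the chemokine-low groups, at 1.66 and 33.6 CPM, and 26 and 150 UMIs in the chemokine-high groups, at 3.12 and 41.1 CPM. Sirpa had log2 ratios of 0.88 and 0.82 in the low and high groups, Cd300a of 0.52 and 0.71, Cd33 of 0.34 and 0.48, Lair1 of 0.38 and 0.35 and Siglech of −0.37 and −0.36. Cd200 had −1.35 and −1.51, and Cd47 0.30 and 0.26. Pilra had 0.33 and 0.14, with intervals that included equality in both groups. Cd200r1, under the minimum, had 0.09 and −0.09, also with such intervals.

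**Figure D4:**
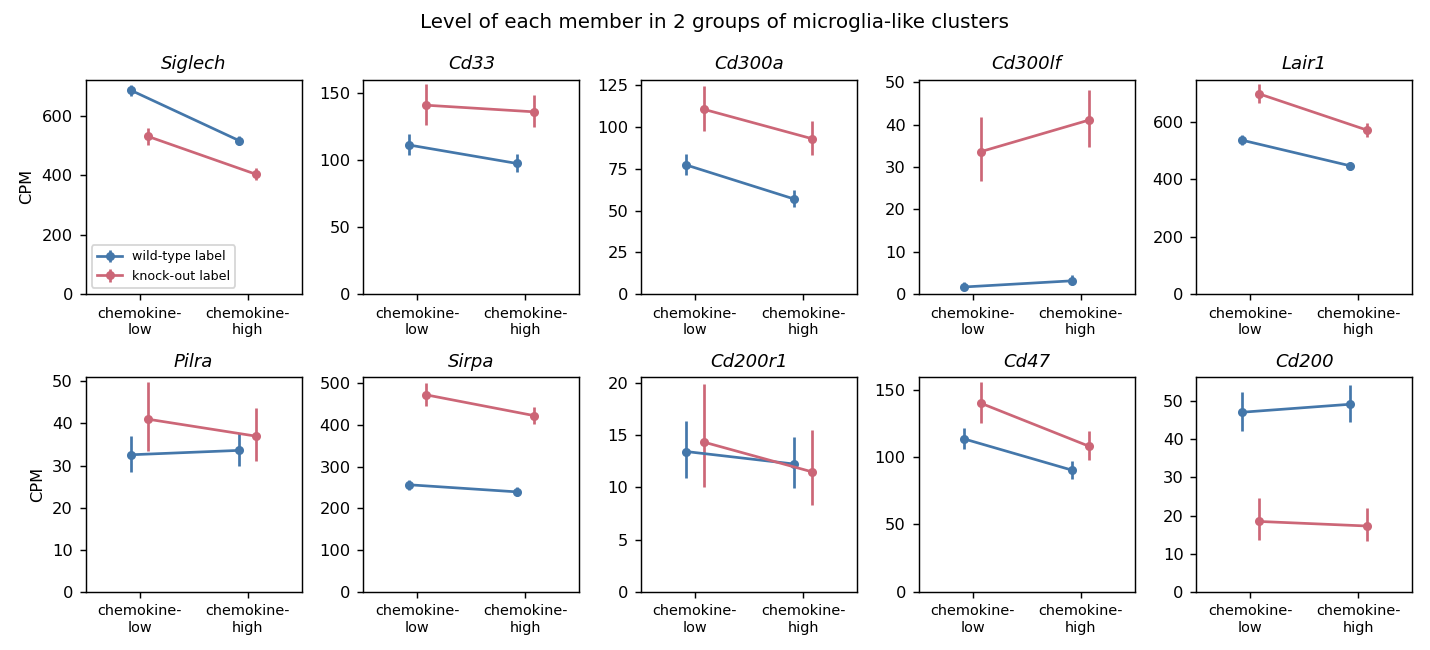
CPM of each member in the chemokine-low and chemokine-high microglia-like cells of each library, with exact 95% Poisson intervals; every vertical axis starts at 0 and has its own scale. Siglech and Lair1 are lower in the high group of both libraries, and the Cd300lf levels of the knock-out label, 33.6 and 41.1 CPM, lie apart from the 1.66 and 3.12 CPM of the wild-type label.

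Genes around these receptors were described by lists, in microglia-like cells and as knock-out over wild-type label, with −0.04 as the median of all genes. Of 18 other inhibitory receptors 9 were measured, 2 higher and 7 lower, with a median of −0.41, where 53.5% of all genes were lower. For 2 of the 7, Siglece (−0.05) and Slamf8 (−0.11), the interval included equality. Fcgr2b, the inhibitory Fc receptor, was at 98.2 and 52.1 CPM (−0.91), Milr1 at 42.9 and 27.8 CPM (−0.62) and Ceacam1 at 58.8 and 40.1 CPM (−0.55). Havcr2, which encodes TIM-3, was at 77.2 and 113 CPM (0.55). None of the 9 differed 2-fold. Ceacam1 was higher in endothelial-like cells, at 133 and 162 CPM, and so was Pecam1, at 73.4 and 55.4 CPM in microglia-like and 316 and 394 CPM in endothelial-like cells. Siglece, Slamf8 and Pecam1 are named here after their values were seen.

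The phosphatases and docking proteins that such receptors recruit had a median close to that of all genes, with single genes on both sides of it. Of 10 listed, 8 were measured, 5 higher and 3 lower, none 2-fold, with a median of 0.07. Of all genes, 46.5% were higher. For Ptpn11, Csk (0.11), Rasa1 (−0.02) and Dok1 (0.02) the interval included equality. Ptpn11 was at 35.7 and 30.8 CPM (−0.21), Inpp5d, which encodes the lipid phosphatase SHIP1, at 169 and 190 CPM (0.17), Grb2 at 91.0 and 120 CPM (0.40) and Dok3 at 44.3 and 63.2 CPM (0.51). Among the Src family and Syk kinases and activating adaptors 9 of 12 were measured, 7 higher and 2 lower, none 2-fold, with a median of 0.21. The 7 higher genes stand beside that same 46.5% of all genes, and for Hcst (0.07) the interval included equality. Csk, Rasa1, Dok1 and Hcst are named here after their values were seen. The largest ratios were those of Plcg2 (0.83), Vav1 (0.37), Syk (0.34) and Btk (0.34). Only 2 of 16 paired activating receptors were measured, AF251705 at 0.61 and Trem2 at −0.16.

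Of the sialic acid synthesis and transfer genes, 9 of 17 were measured, 6 higher and 3 lower, with a median of 0.06. Of all genes, 46.5% were higher. For Neu1 (0.09), Slc35a1 (0.06) and St6galnac4 (0.03), named here after their values were seen, the interval included equality. St3gal5, the synthase of ganglioside GM3, was at 105 and 230 CPM (1.13), St8sia4, a polysialyltransferase, at 40.5 and 18.6 CPM (−1.13), Cmas, which activates sialic acid, at 71.1 and 95.3 CPM (0.42) and St3gal2 at 22.8 and 28.7 CPM (0.33). Of 15 further ligands 6 were measured, 1 higher and 5 lower, with a median of −0.69, where 53.5% of all genes were lower. At least 2-fold lower were 3 of them, against 5.34% of all genes. For C1qa (−0.01), named here after its values were seen, the interval included equality. Npdc1, a ligand of Pilra, had a ratio of −2.04, and the collagen genes Col4a2 and Col4a1 −1.69 and −1.35, while C1qc had 0.17. Npdc1 was at 30.1 and 7.33 CPM in microglia-like cells and at 86.6 and 96.8 CPM in endothelial-like cells, and Col4a2, Col4a1 and St8sia4 were likewise higher in endothelial-like cells of both libraries. The lower sum of endothelial markers in microglia-like cells of the knock-out label stands beside these values as it does beside Cd200, and its part was not tested.

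Genes that respond to cell preparation differed in the same contrast. Of 21 immediate early and stress genes 20 were higher under the knock-out label, against 46.5% of all genes, and 5 of them at least 2-fold, against 1.81%, with a median of 0.67. The median was 0.36 with each library clustered on its own, a setting in which 651 cells of the knock-out label, most of them chemokine-low, were left in the microglia-like class. Nr4a1 had a ratio of 1.48, Socs3 of 1.15, Hspa1b of 1.14 and Zfp36 of 1.12. The summed neutrophil markers went from 161 to 10.4 CPM and the monocyte markers from 88.4 to 47.1 CPM in microglia-like cells, and those of border-associated macrophages were at 119 and 114 CPM. Erythrocyte markers stood at 3401 and 1742 CPM (−0.97) and pericyte or smooth muscle markers at 337 and 152 CPM (−1.15) in the same cells. Their part in the members' differences was not tested.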

How the data were processed

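UMI counts of YFP-positive spinal cord cells were analysed from 2 single-cell libraries, 1 per group. Collagenase (2 mg/ml, 30 min, 37 °C) was used to dissociate the cords, 23500 and 22800 cells were sorted and 4500 and 2600 recovered, per the labels. The sources used here do not give how many animals were pooled. The values deposited by the authors are raw counts of UMIs per gene and barcode, in matrices already limited to cells. The deposited lists of barcodes and genes carry other, non-numeric content. STAR, Cell Ranger 2.0.1, Seurat 2.1.0 and the builds mm10 and GRCm38.p5 appear, without roles, per the submitters' processing notes.

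Filtering asked for 300 genes or more and no more than 10% mitochondrial UMIs, and 8 barcodes failed it. Both libraries were clustered together (scanpy 1.11.5, leidenalg 0.10.2) on 2000 variable genes, 30 components, 15 neighbours and resolution 0.5, leaving out Runx1, sex-linked genes and the 10 members, with no batch correction and no doublet removal. Clusters were named from 20 marker lists. A name needed 3 markers and 50% of its list, and the scoring was set with the clusters in view. UMIs were summed per class and library and divided by the total of the same cells, giving CPM with exact Poisson intervals. Shares carry Clopper-Pearson intervals and log2 ratios exact conditional binomial ones, all at 95%. Genes entered at 20 CPM in either library, 2-fold was the size named, and a count of 0 was set at 3 counts per library. The interval code was checked on simulated data. A UMI stands for a molecule, not a read, and the intervals leave out variation between animals and libraries.

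The members and lists were chosen with earlier results of these data known. Named genes were the members, Runx1, up to 4 measured genes of each of 8 related lists by absolute ratio, and annotated genes within 100 kb of a member that differed 2-fold. Positions are from GENCODE M21, in which 27645 of 27998 gene identifiers were found, and promoter windows from RefSeq, in which 8 of 10 members had an entry. Of 14 alternatives, 2 were added after seeing the data.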

Additional observations from a re-analysis of the deposited data

Results flagged for a closer look

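For 4 members the difference between the libraries ran in opposite directions in microglia-like and endothelial-like cells, with 1 library per group and no test of that difference between classes. Cd33 had a log2 ratio of knock-out over wild-type label of 0.40 in microglia-like and −1.10 in endothelial-like cells. Lair1 had 0.35 and −0.998, and Sirpa 0.84 and −0.38. Cd200 had −1.45 and 0.39. The other members measured in both classes, Siglech (−0.39 and −1.76) and Cd47 (0.25 and 0.50), kept the same direction. The share of all genes with opposite directions was not computed. Of all genes, 46.5% were higher under the knock-out label in microglia-like and 61.5% in endothelial-like cells. Microglia marker RNA in endothelial-like cells had a ratio of −1.01 and endothelial marker RNA in microglia-like cells one of −1.60.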

How the results depend on the processing

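Cd300lf stayed over 2-fold higher in every alternative that measured it, with log2 ratios up to 4.77 (cells thinned to 1500 UMIs). After thinning, Cd300lf was found in 0.18% of microglia-like cells of the wild-type label, so 4.77 rests on few UMIs. With the library background subtracted its wild-type level, 3.48 CPM, was raised to the 5 CPM minimum of that setting, which makes 3.07 a lower bound (3.59 without the minimum). Cd200 ranged from −1.53 to −1.35. Sirpa ranged from 0.56 to 0.93, Cd300a from 0.28 to 0.75, Lair1 from 0.07 to 0.51 and Cd33 from 0.16 to 0.48. Cd47 ranged from 0.23 to 0.49 and Siglech from −0.66 to −0.17. The lowest values of Sirpa, Cd300a, Lair1, Cd33 and Siglech and the highest of Cd47 came with the background subtracted. The highest values of Sirpa, Cd300a, Lair1 and Siglech came with each library clustered on its own. Pilra ranged from −0.08 to 0.33, below 0 with the background subtracted. At a minimum of 50 CPM Cd300lf and Cd200 were no longer measured, by construction, which left 1 lower member, 0 at least 2-fold higher and 0 at least 2-fold lower. With the background subtracted, at 49.9% and 19.8% of the UMIs, Cd200 had no ratio, so 0 members were at least 2-fold lower. In that setting 3.58% of all genes were 2-fold higher and 2.096% lower. The members' median was then 0.22, with 6 higher and 2 lower, beside 53.3% of all genes higher. With each library clustered on its own the members' median was 0.49 and 0 members were 2-fold lower in endothelial-like cells. That setting kept 2184 and 651 microglia-like cells, because a microglia marker-rich cluster of 706 cells of the knock-out label stayed unnamed. That cluster held the chemokine-high group of the knock-out label. The median of 0.49 therefore sets both groups of the wild-type label against mostly chemokine-low cells of the knock-out label. The endothelial-like class of that setting took in 151 knock-out label cells of a cluster with 31.8% high doublet scores and Siglech at 269 CPM. A wild-type label cluster of 406 cells with 36.0% high doublet scores stayed unnamed. The part of these clusters in the endothelial-like count was not tested. Without thinning, 2 members had a higher share under the knock-out label.

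Of the receptor, signalling, ligand and sialic acid lists, 1 of 43 measured genes was at least 2-fold higher (1.81% of all genes) and 4 lower (5.34%). Thinned cells gave 2 of 44 higher (2.58%), and no minimum 7 of 81 higher (4.66%) and 10 lower (10.9%). A minimum of 50 CPM gave 0 of 28 lower (5.101%) and the subtracted background 1 of 39 lower (2.096%). With the background subtracted the medians of the Src and Syk kinase list and of the paired activating receptors turned to −0.025 and −0.00055, and the cause was not tested. The median of the further ligands moved from −0.69 to −0.92 in thinned cells and to −0.21 with the background subtracted. It was −0.39 with no minimum and −0.01 at a minimum of 50 CPM. No paired analysis was possible because each group has 1 library. With 1 library per group, variation between animals was not measured, and Cd200r1 and Pilra were too low for differences of their size to be told from counting error.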
